A study of Homo sapiens with 9 samples.

Results

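The genes described here are 49 genes whose proteins join chromosomes to spindle microtubules, hold back anaphase until that attachment is made, and then release the sister chromatids. They were chosen by name, from general knowledge of the kinetochore, the spindle checkpoint, the anaphase-promoting complex (APC/C) and the separase pathway. No measured value enters the rule, but the list was drawn up with earlier results of these data known. All 49 were found among the 58381 annotated genes. A total of 48 had enough reads to be tested, out of 12814 genes tested in all. The exception was CENPQ, with between 1 and 11 reads in each library.

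RNA was sequenced from EGI-1, an established human line of cholangiocarcinoma, a cancer of the bile duct epithelium. The cells carried a TET-inducible short hairpin RNA, either against GFP as the control (GFPsh) or against FOSL1 (FOSL1sh3 and FOSL1sh10, a pair of separate hairpins), and 3 libraries were made for each. Every group, the control included, carried a hairpin and received doxycycline at 2 ug/ml for 4 days, after which cells were seeded and RNA was taken at 24 h. FOSL1 encodes FRA1, a FOS-family subunit of the transcription factor AP-1. The comparisons ask which transcripts differ when FOSL1 is knocked down. The labels do not say that the 3 libraries of a group came from separate cultures, so each p-value reflects the spread between libraries alone, and that spread may be technical.

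The kinetochore is built on CENP-A nucleosomes at the centromere. The constitutive centromere-associated network (CCAN) binds these nucleosomes and recruits the outer KMN network (KNL1, MIS12 and NDC80 complexes), which grips microtubules. Kinetochores without attached microtubules produce a MAD2-containing inhibitor of CDC20, and once all are attached CDC20 activates the APC/C, which has securin degraded so that separase can cut cohesin. Most of these transcripts are known to be low in G1 cells and to peak in G2 and mitosis, in many cases through a CHR element in the promoter, while several APC/C subunits are made at a steadier level through the cycle.

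Libraries held 6893026 to 10604251 reads counted in genes, so that a count of 0 allows a level of up to 0.283 to 0.435 CPM (counts scaled to the library's total), a limit that covers counting error only. FOSL1 itself (ENSG00000175592; hg38 chromosome 11, 65892049 to 65900573, minus strand) was measured at 302, 256 and 182 CPM in GFPsh, 72.1, 70.1 and 44.8 CPM with FOSL1sh3 and 70.7, 57.0 and 65.6 CPM with FOSL1sh10. It fell with both hairpins, with log2 fold changes of -1.98 (adjusted p = 1.2e-05) and -1.94 (adjusted p = 1.03e-05). The 6 epithelial marker genes (KRT7, KRT19, KRT8, KRT18, EPCAM and CDH1) ranged from 182 to 5180 CPM and summed to 10861 to 11696 CPM in GFPsh, 12152 to 13516 CPM with FOSL1sh3 and 10901 to 12852 CPM with FOSL1sh10. Of the 6, KRT7 rose with both hairpins (0.46, adjusted p = 0.0432, and 0.71, adjusted p = 0.00456), and KRT19 and EPCAM differed between them (0.50, adjusted p = 0.0243, and -0.49, adjusted p = 0.0343). Of 13 markers of leukocytes, fibroblasts, endothelium and hepatocytes, CD3E and PDGFRB were at 0 in all 9 libraries and the highest value of any was 8.74 CPM. The summed leukocyte markers stood at 2.92 to 4.51 CPM in GFPsh, 5.22 to 6.76 CPM with FOSL1sh3 and 5.12 to 8.84 CPM with FOSL1sh10, and the summed endothelial markers at 0.770 to 0.826, 0.576 to 1.33 and 3.41 to 3.56 CPM. The summed fibroblast markers were at 2.13 to 3.96, 2.97 to 6.85 and 4.69 to 5.996 CPM, and the summed hepatocyte markers were at most 0.112, 0.144 and 0.338 CPM. Their part in the results was not tested.

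RefSeq promoter windows (GRCh38.p14, from 250 bases before to 50 bases after the annotated start) were found for 42 of the 49 genes. The CHR letters TTTGAA, searched on both strands, occurred in 19 of the 42 windows (45.2%), against 9.42% of the 9626 windows of tested genes. The variant TTTAAA was found in 6 windows (14.3%, against 7.02%). CCAAT, the letters of the box bound by NF-Y, was found in 27 (64.3%, against 37.1%). The AP-1 letters TGANTCA were in 0 of the 42 windows, against 4.63% of the windows of tested genes, which says only that these letters are not in these windows. Stretches from the windows of 5 genes that fell are shown, each running from the first to the last of these matches with a short flank. That of CENPW holds the CCAAT letters alone. They are written 5′ to 3′ along the gene's strand, with the CHR letters, their variant and the NF-Y box, read on either strand, in capitals, and in PTTG1 a pair of CCAAT matches on opposite strands overlap.
CENPA, chr2:26785836-26786053, plus strand: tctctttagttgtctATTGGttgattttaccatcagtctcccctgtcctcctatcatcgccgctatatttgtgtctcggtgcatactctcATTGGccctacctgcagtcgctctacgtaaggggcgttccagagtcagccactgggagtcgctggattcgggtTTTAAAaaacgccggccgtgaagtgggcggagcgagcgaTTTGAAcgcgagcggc
SPC25, chr2:168890418-168890680, minus strand: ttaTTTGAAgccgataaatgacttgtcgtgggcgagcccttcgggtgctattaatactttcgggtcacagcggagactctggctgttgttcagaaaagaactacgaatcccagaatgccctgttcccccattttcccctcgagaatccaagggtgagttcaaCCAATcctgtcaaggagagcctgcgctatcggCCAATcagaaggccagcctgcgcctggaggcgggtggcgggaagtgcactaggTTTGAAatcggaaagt
CENPW, chr6:126339876-126339927, plus strand: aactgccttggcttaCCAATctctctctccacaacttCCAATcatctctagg
ZWINT, chr10:56361275-56361390, minus strand: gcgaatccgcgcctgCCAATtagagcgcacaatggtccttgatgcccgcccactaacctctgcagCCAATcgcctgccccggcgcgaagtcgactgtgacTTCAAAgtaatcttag
PTTG1, chr5:160421737-160421841, plus strand: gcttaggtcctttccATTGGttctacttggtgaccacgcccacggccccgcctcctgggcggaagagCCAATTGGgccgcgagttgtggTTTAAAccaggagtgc
For FOSL1sh3 the median log2 fold change was -0.34 over the genes with TTTGAA and -0.36 over those without it, and for FOSL1sh10 -0.34 and -0.20. With and without TTTAAA the medians were -0.34 and -0.34 for FOSL1sh3 and -0.63 and -0.27 for FOSL1sh10. With and without CCAAT they were -0.38 and -0.29 for FOSL1sh3 and -0.31 and -0.28 for FOSL1sh10. Of the 19 tested genes with TTTGAA, 6 fell in at least 1 comparison with GFPsh, and 7 of the 22 without it. For TTTAAA the counts were 4 of 6 with it and 9 of 35 without it. For CCAAT they were 10 of 26 with it and 3 of 15 without it. Of all genes tested, 5.65% fell with FOSL1sh3, 2.15% with FOSL1sh10 and 2.97% in the mean of both. The share of all genes that fell in at least 1 of these 3 comparisons is higher than each of these and was not counted. The counts by motif therefore have no matched share beside them. These are descriptions over genes, with no test.

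With FOSL1sh3, 11 of the 48 tested genes fell and 0 rose: CENPA, CENPW, CENPL, SPC25, NUF2, ZWINT, SKA3, MAD2L1, BUB1, CDC23 and SGO2. A gene is said to fall or rise when the adjusted p of edgeR's quasi-likelihood test, with Benjamini-Hochberg adjustment over all 12814 genes, is under 0.05. The 11 are 22.9% of those tested, where 5.65% of all genes tested were lower and 5.21% higher (10.9% in either direction). The median log2 fold change of the 48 was -0.35, against 0.01 over all genes, and 42 of the 48 values were below 0, against 49.4% of all genes. At an unadjusted p under 0.05, 21 were lower and 1 was higher, against 1766 and 1681 of all 12814 genes. DESeq2 called 13 of the 48 lower and 0 higher, and 1539 of all genes in either direction. The count of 11 depends on single libraries: it was 4 without GFPsh replicate 1, 5 without GFPsh replicate 3 and 6 without FOSL1sh3 replicate 3.

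FOSL1sh10 gave 5 genes that fell and 0 that rose: CENPA, CENPW, SPC25, CENPE and PTTG1. They are 10.4% of the 48, against 2.15% of all genes called lower and 3.13% called higher (5.28% in either direction). The median log2 fold change was -0.28, against 0.00 over all genes, with 42 of 48 below 0 (49.8% of all genes). At an unadjusted p under 0.05 there were 16 lower and 0 higher, against 1199 and 1289 of all 12814 genes. DESeq2 called 6 of the 48 lower and 0 higher, and 821 of all genes in either direction. The count of 5 was 2 without GFPsh replicate 1, 1 without GFPsh replicate 3, and 2 without either FOSL1sh10 replicate 2 or FOSL1sh10 replicate 3. Both comparisons use the same 3 GFPsh libraries, so their values are given side by side and are not independent. CENPA, CENPW and SPC25 fell with each hairpin, 3 genes of the 48, where 0.531% of all genes were called lower with each.

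When the mean of both hairpins was set against GFPsh, 10 genes fell and 0 rose (20.8%, against 2.97% of all genes lower and 3.25% higher, or 6.22% in either direction). The median log2 fold change was -0.33, against -0.01 over all genes, and 43 of the 48 values were below 0, as were 50.9% of all genes. At an unadjusted p under 0.05, 22 were lower and 0 higher, against 1379 and 1374 of all 12814 genes. DESeq2 called 10 of the 48 lower and 0 higher, and 957 of all genes in either direction. CENPK was the only one of the 10 that passed in neither hairpin alone; the others were CENPA, CENPW, SPC25, NUF2, ZWINT, SKA3, MAD2L1, PTTG1 and SGO2. This count was 4, 6 and 2 without GFPsh replicate 1, 2 and 3 and 6, 5 and 6 without FOSL1sh10 replicate 1, 2 and 3. In whole RNA from a culture, fewer cells in G2 or mitosis and less of each transcript per cell cannot be told apart. All 3 FOSL1sh3 libraries lay below all 3 GFPsh libraries for 22 of the 48 genes (14.5% of all genes did so) and above them for 1 (14.7%). For FOSL1sh10 the counts were 19 below (13.0% of all genes) and 0 above (14.3%). All 6 FOSL1 hairpin libraries were below the controls for 11 genes, against 4.39% of all genes, and above them for 0, against 5.27%.

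**Figure D1:**
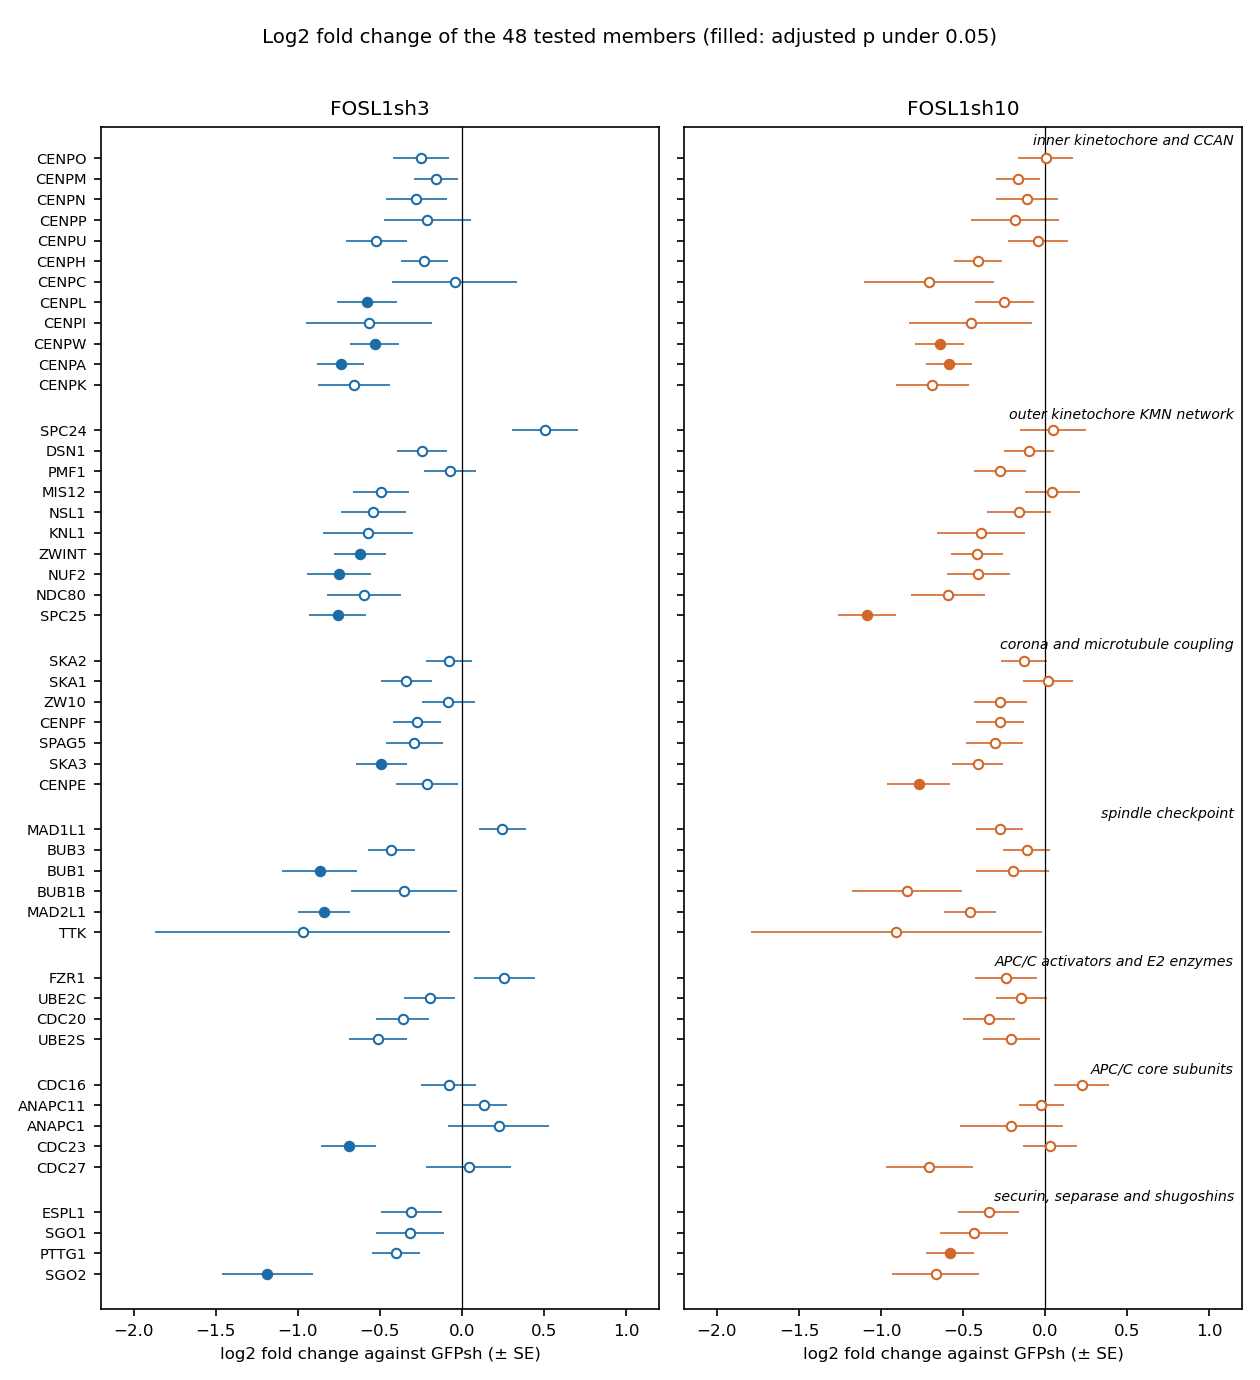
Log2 fold change against GFPsh (x axis) of each of the 48 tested genes (y axis, grouped by role) with FOSL1sh3 and with FOSL1sh10; points are the fitted values, bars are 1 standard error, and filled points are genes with an adjusted p under 0.05. For each hairpin 42 of the 48 points lie left of 0, with the filled points all on that side.

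Added over all 49 genes, the GFPsh libraries held 4123, 4063 and 4110 CPM, the FOSL1sh3 libraries 3565, 3475 and 3436 CPM, and the FOSL1sh10 libraries 3644, 3472 and 3348 CPM. The hairpin libraries were all below the controls, at 85.2% and 85.1% of the control mean. The 16 genes of the G1/S list described further on summed to nearly the same share, 86.1% and 86.3%, and the 4 of the chromosomal passenger complex to 83.8% and 81.7%, also with all hairpin libraries below all controls. The summed level differed by role. It was lowest relative to control for the checkpoint genes with FOSL1sh3 (69.3%) and for the securin, separase and shugoshin genes with FOSL1sh10 (68.3%). The checkpoint sum is mostly BUB3 and MAD2L1, with means of 261 and 198 of 526 CPM in GFPsh. PTTG1 makes up most of the other sum, 226 of 272 CPM in GFPsh. Both sums therefore say little about the other genes of those roles. The core APC/C subunits stood at 107.2% and 98.4%, but most of that sum is ANAPC11. Its means in GFPsh, FOSL1sh3 and FOSL1sh10 were 1000, 1099 and 985 CPM, of core sums of 1132, 1214 and 1114 CPM. The sum therefore says little about the other core subunits.

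**Figure D2:**
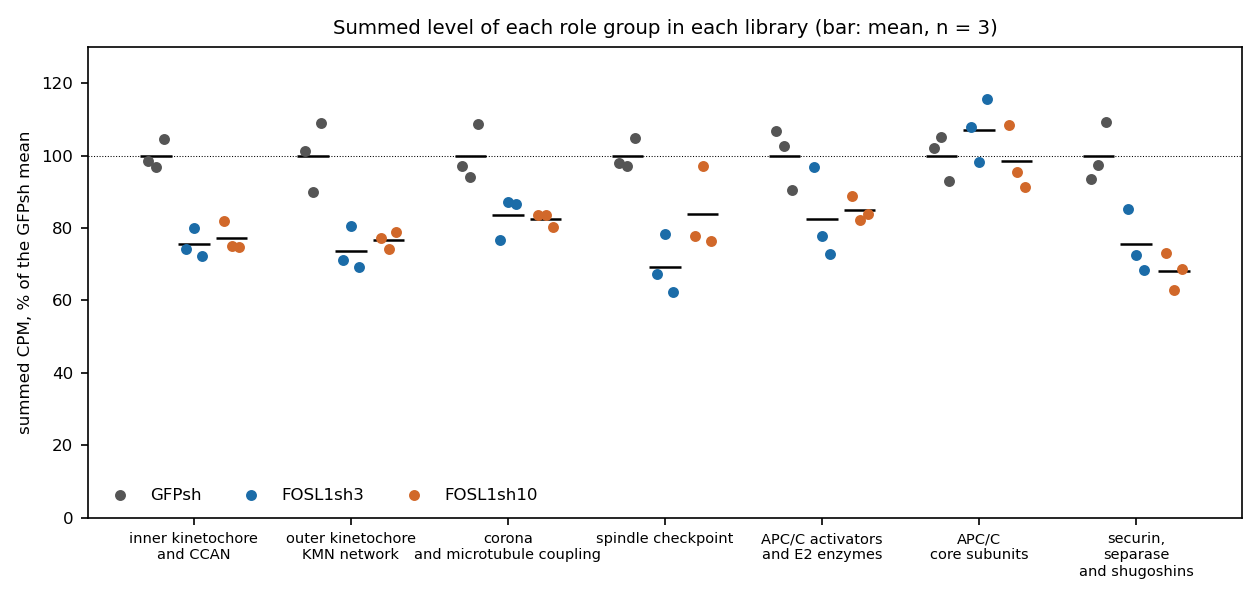
Summed CPM of the genes of each role in each library, as a percent of the GFPsh mean (y axis), for GFPsh, FOSL1sh3 and FOSL1sh10; each point is 1 library and each line the group mean. The inner and outer kinetochore sums lie at 73.7% to 77.3% of control with the hairpins, and the core APC/C sum at 98.4% to 107.2%. The core APC/C sum is mostly ANAPC11.

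Of the inner kinetochore genes, 12 were tested, and 3 fell with FOSL1sh3, 2 with FOSL1sh10 and 3 in the mean, with median log2 fold changes of -0.40 and -0.33 for the hairpins. CENPA encodes the histone H3 variant that marks the centromere (ENSG00000115163; chromosome 2, 26764289 to 26801067, plus strand). It stood at 83.4, 72.2 and 97.4 CPM in GFPsh, 47.8, 50.5 and 53.2 CPM with FOSL1sh3 and 55.1, 60.5 and 52.9 CPM with FOSL1sh10. All 6 hairpin libraries were below all controls, and the group means were 84.3 ± 12.6, 50.5 ± 2.68 and 56.2 ± 3.88 CPM (SD, n = 3). CENPA fell by 0.74 on the log2 scale with FOSL1sh3 (SE 0.142, adjusted p = 0.00345) and by 0.59 with FOSL1sh10 (SE 0.141, adjusted p = 0.0183). The FOSL1sh3 call held in all 12 alternative analyses. The FOSL1sh10 call was lost without replicate 1 or 3 of either FOSL1sh10 or GFPsh (adjusted p from 0.0600 to 0.105) and with library totals as the only scaling (0.0570).

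CENPW is a histone-fold subunit of the CCAN (chromosome 6, 126340174 to 126348875, plus strand). Its level was 142, 135 and 157 CPM in GFPsh, 114, 101 and 83.9 CPM with FOSL1sh3 and 109, 83.7 and 85.7 CPM with FOSL1sh10. All 6 hairpin libraries were below the controls, and the hairpins overlapped each other. CENPW fell by 0.53 on the log2 scale with FOSL1sh3 (SE 0.150, adjusted p = 0.0296) and by 0.64 with FOSL1sh10 (SE 0.151, adjusted p = 0.0161). The calls for the hairpins were lost, in order, without FOSL1sh3 replicate 3, GFPsh replicate 1 or GFPsh replicate 3 (adjusted p from 0.0898 to 0.107) or with only the groups compared in the fit (0.0526), and without FOSL1sh10 replicate 2, FOSL1sh10 replicate 3 or GFPsh replicate 3 (0.0696 to 0.0898), and the mean call without GFPsh replicate 3 (0.0667).

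CENPL, which binds CENP-N within the CCAN, was at 36.9, 35.9 and 43.0 CPM in GFPsh, 18.1, 28.1 and 31.6 CPM with FOSL1sh3 and 31.7, 35.1 and 30.7 CPM with FOSL1sh10. It fell with FOSL1sh3 (log2 fold change -0.58, adjusted p = 0.0491), a call lost without any 1 control or FOSL1sh3 replicate 1 (0.0746 to 0.184) and with only the groups compared (0.0927), and with FOSL1sh10 the value was -0.25 (adjusted p = 0.505). CENPK, a CCAN subunit of the CENP-H/I/K group, stood at 46.5, 33.9 and 33.5 CPM in the controls, 26.2, 31.5 and 14.3 CPM with FOSL1sh3 and 22.5, 23.8 and 24.3 CPM with FOSL1sh10. The mean fell by 0.67 on the log2 scale (adjusted p = 0.0381), which was lost without any 1 control or any 1 FOSL1sh10 library (0.0614 to 0.241). DESeq2 gave adjusted p = 0.0445 and 0.0499 for CENPK with the hairpins, where edgeR gave 0.0617 and 0.0800. For both genes all 6 hairpin libraries were below all 3 controls. The partners of CENPK did not pass the test: CENPH had values of -0.23 and -0.41 (adjusted p = 0.113 for FOSL1sh10), and CENPI, near 3 CPM in GFPsh, -0.57 and -0.45. CENPU, of the CENP-O group, was at -0.52 (adjusted p = 0.0802, and 0.0491 with the replicate number as a block) and -0.04. In the same group, which has further members, CENPO was at -0.25 and 0.00 and CENPP at -0.21 and -0.18. CENPM was at -0.16 and -0.17, CENPN at -0.28 and -0.11, and CENPC, whose libraries held 1.22 to 3.70 CPM, at -0.04 and -0.71.

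The outer KMN network and ZWINT numbered 10 tested genes, of which 3 fell with FOSL1sh3, 1 with FOSL1sh10 and 3 in the mean; the medians were -0.56 and -0.33. SPC25 belongs to the NDC80 complex, where with SPC24 it forms the end that faces the inner kinetochore (ENSG00000152253; chromosome 2, 168834132 to 168913371, minus strand). Its level was 66.2, 61.3 and 61.5 CPM in GFPsh, 41.1, 44.8 and 25.9 CPM with FOSL1sh3 and 33.3, 28.9 and 27.0 CPM with FOSL1sh10. The controls lay close together and above all hairpin libraries. SPC25 fell by 0.76 on the log2 scale with FOSL1sh3 (SE 0.175, adjusted p = 0.0107) and by 1.08 with FOSL1sh10 (SE 0.177, adjusted p = 0.000893). Both calls and that of the mean held in every alternative analysis run, and the difference between the hairpins did not pass the test (0.33, adjusted p = 0.241).

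SPC24, its direct partner, had the highest log2 fold change of the 48 genes with FOSL1sh3. It was at 21.5, 31.1 and 22.8 CPM in GFPsh, 24.8, 38.9 and 43.8 CPM with FOSL1sh3 and 27.0, 24.8 and 26.3 CPM with FOSL1sh10. The groups overlapped, and neither value passed the test (0.50, adjusted p = 0.112, and 0.05, adjusted p = 0.928). Without FOSL1sh3 replicate 1 the value was 0.72 (adjusted p = 0.0247).

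NUF2 and NDC80 form the microtubule-facing end of the same complex. NUF2 (chromosome 1, 163266576 to 163355764, plus strand) was at 30.1, 26.3 and 24.7 CPM in GFPsh, 16.3, 20.1 and 11.8 CPM with FOSL1sh3 and 20.9, 22.3 and 17.9 CPM with FOSL1sh10, with no overlap with the controls. It fell with FOSL1sh3 (-0.75, adjusted p = 0.0198) and in the mean (-0.58, adjusted p = 0.0416), and with FOSL1sh10 the value was -0.41 (adjusted p = 0.247). The FOSL1sh3 call was lost without GFPsh replicate 1 or FOSL1sh3 replicate 3 (0.0742 to 0.0932), and the mean call without any 1 of 8 libraries (0.0507 to 0.203) and with library totals as the only scaling (0.0528). NDC80 had 37.0, 34.1 and 47.7 CPM in GFPsh, 23.3, 38.1 and 17.5 CPM with FOSL1sh3 and 30.7, 22.3 and 26.1 CPM with FOSL1sh10. FOSL1sh3 overlapped the controls there, and the values were -0.60 (adjusted p = 0.0973) and -0.59 (adjusted p = 0.146). Both values of NDC80 passed without a count filter (0.0197 and 0.0323). The FOSL1sh10 value also passed with only the groups compared (0.0278).

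ZWINT, which binds KNL1 and helps bring the ROD-ZW10-Zwilch complex to kinetochores, was at 171, 122 and 196 CPM in GFPsh, 103, 110 and 105 CPM with FOSL1sh3 and 119, 115 and 134 CPM with FOSL1sh10. The FOSL1sh3 libraries were all below the controls, while GFPsh replicate 2 lay among the FOSL1sh10 libraries. ZWINT fell with FOSL1sh3 (-0.62, adjusted p = 0.0186) and in the mean (-0.52, adjusted p = 0.0274), and the FOSL1sh10 value was -0.41 (adjusted p = 0.144). Without GFPsh replicate 1 or 3 the FOSL1sh3 call was lost (0.0818 to 0.0932), and without those or FOSL1sh10 replicate 1 or 2 the mean call (0.0595 to 0.192). KNL1, the scaffold that BUB proteins bind, was at -0.57 and -0.39 without passing the test, at 3.07 to 6.17 CPM over the 9 libraries. Within the MIS12 complex, DSN1 was at -0.24 and -0.10, NSL1 at -0.54 (adjusted p = 0.0883) and -0.16, and PMF1, which shares exons with the readthrough gene PMF1-BGLAP, at -0.07 and -0.27.

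MIS12, the gene that names that complex, differed between the hairpins. It had 21.1, 19.1 and 24.1 CPM in GFPsh, 13.9, 16.5 and 15.2 CPM with FOSL1sh3 and 20.6, 22.8 and 22.8 CPM with FOSL1sh10. The FOSL1sh3 libraries were below every other library, and FOSL1sh10 lay among the controls. Neither value against GFPsh passed the test (-0.49, adjusted p = 0.0698, and 0.04, adjusted p = 0.924), while FOSL1sh3 was lower than FOSL1sh10 by a log2 difference of -0.54 (SE 0.170, adjusted p = 0.0445), lost without any 1 of 5 libraries (0.0692 to 0.154), without a count filter (0.0881) and with only those groups in the fit (0.0744).

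Of the 7 genes of the corona and of microtubule coupling, 1 was called lower with FOSL1sh3 (SKA3) and 1 with FOSL1sh10 (CENPE); the medians were -0.27 and -0.28, and neither gene passed the test of the difference between the hairpins. SKA3, of the SKA complex that keeps kinetochores on shortening microtubules, was at 66.2, 54.7 and 63.0 CPM in GFPsh, 45.6, 50.4 and 34.9 CPM with FOSL1sh3 and 51.1, 44.6 and 42.8 CPM with FOSL1sh10. All hairpin libraries were below the controls. It fell with FOSL1sh3 (-0.49, adjusted p = 0.0486) and in the mean (-0.45, adjusted p = 0.0487), and the FOSL1sh10 value was -0.41 (adjusted p = 0.138). The difference between the hairpins was -0.08 (adjusted p = 0.779). The FOSL1sh3 call was lost without any 1 of 5 libraries (0.0568 to 0.184), without a count filter (0.0505) and with only the groups compared (0.0908). The mean call was lost without any 1 of 8 libraries (0.0520 to 0.223) and with library totals as the only scaling (0.0596). SKA1 and SKA2, the other subunits, were at -0.34 and 0.02 and at -0.08 and -0.13.

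CENPE, the kinesin that carries chromosomes to the spindle equator, was at 25.9, 20.3 and 27.7 CPM in GFPsh, 19.4, 21.7 and 22.7 CPM with FOSL1sh3 and 15.9, 10.9 and 16.5 CPM with FOSL1sh10. The FOSL1sh10 libraries were below all others. CENPE fell with FOSL1sh10 (-0.77, SE 0.193, adjusted p = 0.0235), which was lost without FOSL1sh10 replicate 2, GFPsh replicate 1 or GFPsh replicate 3 (0.0804 to 0.132), and the FOSL1sh3 value was -0.21 (adjusted p = 0.508). The test of the difference between the hairpins gave 0.56 (adjusted p = 0.0674), and it passed with the replicate number as a block (0.57, adjusted p = 0.0491). CENPF, a large protein of the corona, was at -0.27 and -0.28, ZW10 at -0.08 and -0.27, and SPAG5, a spindle-associated protein, at -0.29 and -0.31, none past the test.

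Among the 6 spindle checkpoint genes, 2 fell with FOSL1sh3, 0 with FOSL1sh10 and 1 in the mean, by edgeR; the medians were -0.64 and -0.37. All 6 values with FOSL1sh10 were below 0, 2 of them at an unadjusted p under 0.05, where 1199 of all 12814 genes were lower. DESeq2 also called 0 of the 6. MAD2L1 encodes MAD2, the protein that unattached kinetochores convert into the CDC20 inhibitor (ENSG00000164109; chromosome 4, 120055608 to 120067074, minus strand). It stood at 186, 190 and 217 CPM in GFPsh, 98.8, 136 and 96.3 CPM with FOSL1sh3 and 139, 168 and 126 CPM with FOSL1sh10. All hairpin libraries were below the controls, with FOSL1sh3 replicate 2 among the FOSL1sh10 libraries. The group means were 198 ± 17.0, 110 ± 22.4 and 144 ± 21.7 CPM (SD, n = 3). MAD2L1 fell by 0.84 on the log2 scale with FOSL1sh3 (SE 0.159, adjusted p = 0.00319), in every alternative analysis run, and by 0.65 in the mean (adjusted p = 0.00731), which was lost without GFPsh replicate 3 (0.0565). The FOSL1sh10 value of -0.46 missed the threshold (adjusted p = 0.105), as did the difference between the hairpins (-0.38, adjusted p = 0.120). The first passed with only the groups compared (0.0374), and the second with library totals as the only scaling (0.0264) and without FOSL1sh3 replicate 2 (0.0244).

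BUB1, the kinase that recruits other checkpoint proteins to KNL1, was at 29.04, 21.4 and 26.1 CPM in GFPsh, 12.6, 20.3 and 9.27 CPM with FOSL1sh3 and 19.3, 23.4 and 23.8 CPM with FOSL1sh10. The FOSL1sh3 libraries were all below the controls, and FOSL1sh10 overlapped both other groups. It fell with FOSL1sh3 (-0.87, SE 0.230, adjusted p = 0.0223), which was lost without replicate 1 or 3 of either FOSL1sh3 or GFPsh (0.0638 to 0.0959), and the FOSL1sh10 value was -0.20 (adjusted p = 0.693). The difference between the hairpins was -0.67 (adjusted p = 0.0644), which passed by DESeq2 (0.0491), with library totals as the only scaling (0.0197), without a count filter (0.0184) and without FOSL1sh3 replicate 2 (0.00484). BUB3, which carries BUB1 and BUBR1 to KNL1, was at -0.43 (adjusted p = 0.0601) and -0.11. Its FOSL1sh3 value passed by DESeq2 (0.0394) and with library totals as the only scaling (0.0385). BUB1B, which encodes BUBR1 and was at 2.24 to 6.29 CPM over the 9 libraries, had values of -0.35 and -0.84 (adjusted p = 0.164 for FOSL1sh10). TTK, the kinase MPS1 that starts checkpoint signalling, was near the limit of detection, at 0, 2.13 and 1.43 CPM in GFPsh, 0.205, 0.576 and 1.14 CPM with FOSL1sh3 and 1.56, 0.564 and 0 CPM with FOSL1sh10. No difference could be detected for it at this depth.

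MAD1L1 encodes MAD1, which anchors MAD2 at unattached kinetochores. It was at 36.7, 37.6 and 31.2 CPM in GFPsh, 40.3, 42.0 and 42.9 CPM with FOSL1sh3 and 28.9, 27.6 and 30.6 CPM with FOSL1sh10. The FOSL1sh3 libraries were above all controls, the only 1 of the 48 genes for which this was so, and the FOSL1sh10 libraries were below all controls. Neither value against GFPsh passed the test (0.25, adjusted p = 0.281, and -0.28, adjusted p = 0.309). The log2 difference between the hairpins was 0.52 (SE 0.143, adjusted p = 0.0231), lost without any 1 FOSL1sh10 library (0.0525 to 0.0978), with library totals as the only scaling (0.114) and without a count filter (0.0533).

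**Figure D3:**
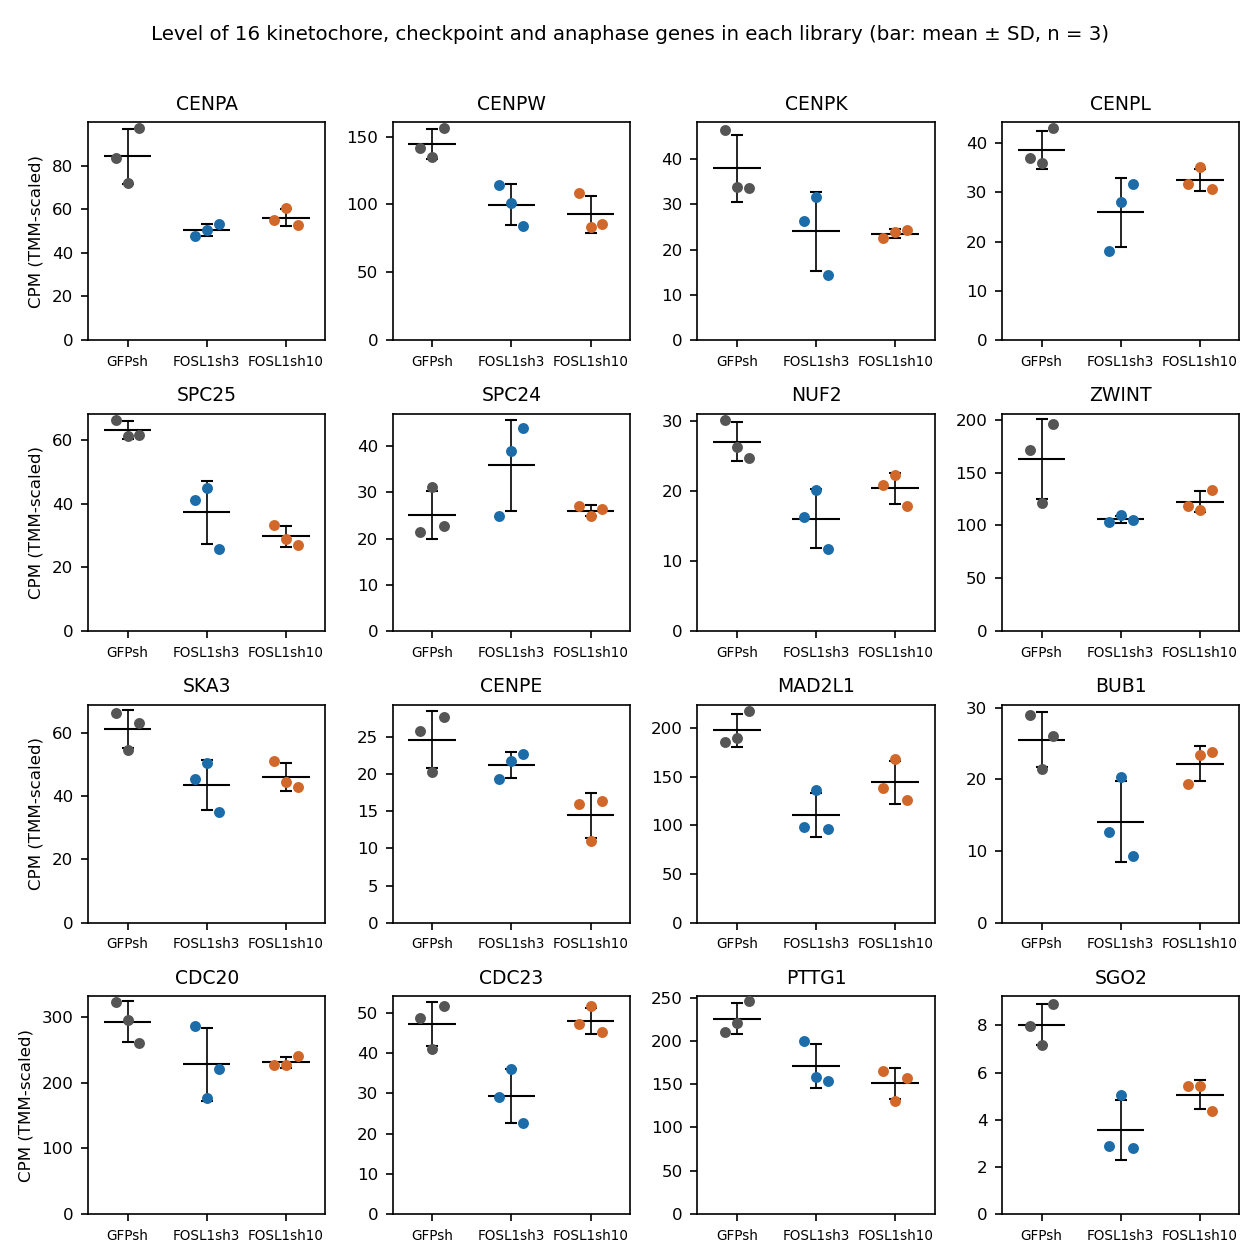
TMM-scaled CPM (y axis, from 0) in each library of GFPsh, FOSL1sh3 and FOSL1sh10 (x axis) for the 16 genes named above the panels; each point is 1 library, each line the group mean and each bar the SD (n = 3). For CENPA, SPC25 and MAD2L1 all 6 hairpin libraries lie below the 3 controls, and for CDC23 the FOSL1sh10 libraries lie among the controls and the FOSL1sh3 libraries below them.

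The 4 activators and ubiquitin-conjugating enzymes of the APC/C gave no call with either hairpin or in the mean, in the main edgeR fit or by DESeq2. Their medians were -0.28 and -0.22. At an unadjusted p under 0.05, 2 were lower with FOSL1sh3 and 1 with FOSL1sh10, against 1766 and 1199 of all 12814 genes. CDC20, the activator that the checkpoint holds back, was at 323, 295 and 261 CPM in GFPsh, 287, 177 and 220 CPM with FOSL1sh3 and 226, 226 and 241 CPM with FOSL1sh10. FOSL1sh3 replicate 1 lay among the controls while all FOSL1sh10 libraries were below them, and the values were -0.36 (adjusted p = 0.154) and -0.34 (adjusted p = 0.247). UBE2S, which extends ubiquitin chains on APC/C substrates, was at -0.51 (adjusted p = 0.0692) and -0.20, and UBE2C, which starts those chains, at -0.20 (adjusted p = 0.445) and -0.15. The FOSL1sh3 value of UBE2S passed in some alternatives, among them library totals as the only scaling (0.0398) and no count filter (0.0330). FZR1, which encodes CDH1, the activator used from late mitosis into G1, was at 0.26 and -0.24.

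Of the 5 core APC/C subunits 1 fell with FOSL1sh3 and 0 with FOSL1sh10 or in the mean, in the main edgeR fit and by DESeq2. In each comparison 1 was lower at an unadjusted p under 0.05, against 1766, 1199 and 1379 of all 12814 genes. The medians were 0.04 and -0.02 for the hairpins, close to those of all genes. CDC23, the APC8 subunit (chromosome 5, 138187648 to 138213343, minus strand), was at 48.9, 41.1 and 51.7 CPM in GFPsh, 29.2, 36.1 and 22.6 CPM with FOSL1sh3 and 47.4, 51.7 and 45.3 CPM with FOSL1sh10. The FOSL1sh3 libraries were below every other library. It fell by 0.69 on the log2 scale with FOSL1sh3 (SE 0.168, adjusted p = 0.0148), lost without FOSL1sh3 replicate 3, GFPsh replicate 1 or GFPsh replicate 3 (0.0543 to 0.0604), while FOSL1sh10 gave 0.03 (adjusted p = 0.952). The hairpins differed by -0.72 (SE 0.168, adjusted p = 0.00953), which was lost without FOSL1sh10 replicate 2 (0.0560). Of the last 500 exon bases of CDC23, 13.6% are shared with KIF20A, a mitotic kinesin on the other strand, and no strand option is recorded for the counting, so reads from the pair may not be told apart.

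CDC27, the APC3 subunit that binds the activators, was at 22.4, 30.3 and 21.9 CPM in GFPsh, 23.0, 32.1 and 22.0 CPM with FOSL1sh3 and 23.3, 14.3 and 8.74 CPM with FOSL1sh10. FOSL1sh10 replicate 1 lay among the controls and the other 2 libraries below them. The values were 0.04 and -0.70 (adjusted p = 0.140, 0.0205 without FOSL1sh10 replicate 1 and 0.0139 without a count filter). The difference between the hairpins was 0.75 (adjusted p = 0.0737), which passed by DESeq2 (0.0489), without a count filter (0.00560) and without FOSL1sh10 replicate 1 (0.0102). ANAPC11, the RING subunit that catalyses ubiquitin transfer, was at 1021, 1062 and 918 CPM in GFPsh, 1114, 998 and 1185 CPM with FOSL1sh3 and 1091, 941 and 922 CPM with FOSL1sh10, with overlapping groups and values of 0.14 and -0.02. Its reads are most of those summed over the core subunits. Of the last 500 exon bases of ANAPC11, 49.4% are shared with other annotated genes. ANAPC1, the scaffold, was at 0.22 and -0.21, and CDC16, the APC6 subunit, at -0.08 and 0.22.

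Of securin, separase and the shugoshins, 1 fell with each hairpin and 2 in the mean; the medians were -0.36 and -0.51. PTTG1 encodes securin, the inhibitor of separase that the APC/C marks for destruction (ENSG00000164611; chromosome 5, 160421822 to 160428744, plus strand). It stood at 211, 220 and 246 CPM in GFPsh, 200, 158 and 154 CPM with FOSL1sh3 and 165, 131 and 157 CPM with FOSL1sh10. All hairpin libraries were below the controls, and the means were 226 ± 18.2, 171 ± 25.4 and 151 ± 18.03 CPM (SD, n = 3). PTTG1 fell with FOSL1sh10 (-0.58, SE 0.146, adjusted p = 0.0242) and in the mean (-0.49, adjusted p = 0.0244). The FOSL1sh3 value was -0.40 (adjusted p = 0.0830, and 0.0368 with library totals as the only scaling). The FOSL1sh10 call was lost without any 1 control or FOSL1sh10 replicate 2 or 3 (0.0504 to 0.138), and the mean call without any 1 control or FOSL1sh10 replicate 2 (0.0603 to 0.126).

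SGO2, a shugoshin that shields centromeric cohesin and recruits the kinesin MCAK, was at 7.98, 7.18 and 8.91 CPM in GFPsh, 2.87, 5.04 and 2.79 CPM with FOSL1sh3 and 5.41, 5.41 and 4.37 CPM with FOSL1sh10, below the controls in all 6 hairpin libraries. Its fall of 1.19 on the log2 scale with FOSL1sh3 (SE 0.278, adjusted p = 0.0117) was the largest of the 48 genes in that comparison and held in every alternative analysis run. The FOSL1sh10 value was -0.67 (adjusted p = 0.165) and the mean -0.93 (adjusted p = 0.0212), lost without FOSL1sh10 replicate 3, GFPsh replicate 1 or GFPsh replicate 3 (0.0513 to 0.114). SGO1, which protects centromeric cohesin in mitosis, was at -0.32 and -0.43, and ESPL1, which encodes separase, at -0.31 and -0.34, neither past the test.

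Set directly against each other, FOSL1sh3 was lower than FOSL1sh10 for 2 of the 48 genes, MIS12 and CDC23 (4.17%, against 7.00% of all genes), and higher for 1, MAD1L1 (2.08%, against 5.74%). Over all genes 12.7% differed in either direction. The median log2 difference of the 48 was -0.02, with 26 of 48 below 0 and 49.9% of all genes. The genes called with 1 hairpin and not with the other, such as BUB1, CENPE and MAD2L1, did not pass this test of the difference, apart from CDC23, though some did under the alternatives given with them.

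Genes that work with these 49 were counted in the same way from lists chosen by function. No gene of these lists rose against GFPsh with either hairpin or in the mean. Of all genes tested, 5.65% fell with FOSL1sh3 and 2.15% with FOSL1sh10. Each of these lists is small, so 1 or 2 calls say little about a list. Of 14 tested kinetochore partners, 2 fell with FOSL1sh3 and 1 with FOSL1sh10 (14.3% and 7.14%), with medians of -0.41 and -0.17. HJURP, the chaperone that deposits CENP-A, fell with FOSL1sh3 (-0.47, adjusted p = 0.0276), as did KNSTRN, which encodes the kinetochore protein SKAP (-0.63, adjusted p = 0.0298). With FOSL1sh10 HJURP was at -0.19 and KNSTRN at -0.25, neither past the test. SPDL1, which brings dynein to kinetochores, was at 34.0, 23.6 and 30.1 CPM in GFPsh, 24.7, 17.0 and 9.52 CPM with FOSL1sh3 and 13.2, 11.4 and 14.1 CPM with FOSL1sh10. The FOSL1sh10 libraries lay together below all controls. SPDL1 fell by 1.17 on the log2 scale with FOSL1sh10 (SE 0.255, adjusted p = 0.00962, and 0.0533 without FOSL1sh10 replicate 2). The FOSL1sh3 value was -0.76 (adjusted p = 0.0565). That value passed by DESeq2 (0.0357), with the replicate number as a block (0.0285) and without a count filter (0.00437).

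Of the chromosomal passenger complex, whose kinase corrects wrong attachments, 1 of 4 genes fell with each hairpin. This was CDCA8, which encodes borealin, with FOSL1sh3 (-0.47, adjusted p = 0.0289) and BIRC5, which encodes survivin, with FOSL1sh10 (-0.45, adjusted p = 0.0466). Of 9 cohesin genes 1 fell, WAPL, the cohesin release factor, with FOSL1sh3 (-0.61, adjusted p = 0.0367), and the medians were -0.12 and -0.06. Of 15 tested genes of the G1/S transition, most of which are known to peak before mitosis, 2 fell with FOSL1sh3 (CDC6, -0.56, adjusted p = 0.0348, and RRM2, -0.43, adjusted p = 0.0491) and 1 with FOSL1sh10 (MCM4, -0.51, adjusted p = 0.0405), with medians of -0.24 and -0.22 and 13 and 14 of the 15 values below 0. Each of these calls of passenger complex, cohesin and G1/S genes, and those of HJURP and KNSTRN, was lost without GFPsh replicate 1 (adjusted p from 0.0909 to 0.140), among other libraries. With the other hairpin CDCA8 was at -0.29, BIRC5 at -0.37, WAPL at -0.04, CDC6 at -0.13, RRM2 at -0.26 and MCM4 at 0.02. None of these passed the test, though BIRC5 with FOSL1sh3 did by DESeq2 (0.0388) and with library totals as the only scaling (0.0376). FOSL1sh3 differed from FOSL1sh10 for WAPL (-0.57, adjusted p = 0.0459) and MCM4 (0.53, adjusted p = 0.0199). It also differed for SLBP of the G1/S list (-0.45, adjusted p = 0.0331), at -0.26 and 0.18 against GFPsh without passing. Each of these differences was lost in at least 1 alternative analysis.

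The 9 tested genes of the remaining APC/C subunits and inhibitor gave 0 calls against GFPsh in the main edgeR fit and by DESeq2. Their medians were -0.24 and -0.03. At an unadjusted p under 0.05, 2 were lower with FOSL1sh3 and 0 with FOSL1sh10, against 1766 and 1199 of all 12814 genes. Among the 9, FBXO5, which encodes the APC/C inhibitor EMI1, differed between the hairpins. It was at 13.3, 15.3 and 14.3 CPM in GFPsh, 7.07, 14.0 and 5.33 CPM with FOSL1sh3 and 18.4, 24.4 and 18.9 CPM with FOSL1sh10. All FOSL1sh10 libraries were above the controls, and FOSL1sh3 replicate 2 lay within them while the other 2 were below. The FOSL1sh3 value of -0.72 (adjusted p = 0.0893) passed without a count filter (0.0255) and with the replicate number as a block (0.0362). FOSL1sh3 was lower than FOSL1sh10 by a log2 difference of -1.24 (SE 0.264, adjusted p = 0.00501), which held in every alternative analysis run.

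Some of these transcripts are counted with less certainty than others. Of the 49 genes, 20 share at least 1 exon base with another annotated gene, 8 of them over at least 10% of their last 500 exon bases, and 12 have annotated pseudogenes named after them, among them BUB1, CDC20, UBE2C, CDC27 and SGO1. CPM values here are read counts, in a protocol that primes at the poly(A) end, and are not scaled by length, so levels were not compared between genes.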

How the data were processed

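RNA of 9 EGI-1 libraries, 3 in each group, was sequenced by MARS-seq, a low-input protocol, per the labels' protocols. The submitters' processing notes name FastQC 0.11.5, STAR 2.5.3a, featureCounts 1.6.0, hg38, GENCODE 28, edgeR and limma, with no role or order for each. The deposited values are whole-number read counts per gene, not normalized, per the file headers; no source used here says whether molecular identifiers were collapsed, and the headers set no strand option.

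The counts were fitted together with edgeR 4.0.16 in R 4.3.3 (TMM scaling, quasi-likelihood test, 1 spread for all groups), after genes were kept with a minimum count of 10 and a total of 15, which left 12814 genes. P-values were Benjamini-Hochberg adjusted over those genes and called under 0.05. CPM are TMM-scaled. Symbols came from the gene name table by Ensembl ID (57754 of 58381 genes matched) and pseudogene names from GENCODE 29. The common biological coefficient of variation was 16.4%. The script was tested on simulated data. The alternatives were DESeq2 1.42.0, other scalings, no count filter, only the groups compared, the replicate number as a block, and leaving out each library.

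Named genes are FOSL1, each of the 49 genes that was called, the 2 with the smallest p per role in the mean of both hairpins, and up to 4 called genes of each list of related genes; others are named with their values to account for them. The genes, roles and lists were chosen with earlier results of these data known.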

Additional observations from a re-analysis of the deposited data

Results flagged for a closer look

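For 3 of the 49 genes the effect of FOSL1sh3 differed from that of FOSL1sh10 by edgeR's test of the hairpins against each other. Of the 48 tested, 4.17% were lower and 2.08% higher, against 7.00% and 5.74% of all genes (12.7% in either direction). The count is thus below the share of all genes. The log2 difference, FOSL1sh3 minus FOSL1sh10, was -0.54 for MIS12, 0.52 for MAD1L1 and -0.72 for CDC23. The adjusted p was 0.0445, 0.0231 and 0.00953. For MIS12 and CDC23 the FOSL1sh3 libraries were below all others, and for MAD1L1 they were above all others. Each of the 3 calls was lost in at least 1 alternative analysis, and their directions held in all of them.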

How the results depend on the processing

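Every gene of the 49 that was called kept its direction in all alternatives, and 4 of the 11 calls with FOSL1sh3 (CENPA, SPC25, MAD2L1 and SGO2), 1 of 5 with FOSL1sh10 (SPC25), 2 of 10 in the mean (CENPA and SPC25) and 0 of 3 between the hairpins held in all of them. When each library was left out in turn the count of the 49 genes called lower ranged from 4 to 16 with FOSL1sh3, from 1 to 5 with FOSL1sh10, from 2 to 12 in the mean and from 0 to 4 between the hairpins. The count called higher ranged from 0 to 1 with FOSL1sh3 and from 0 to 2 between the hairpins. Over all genes, calls in either direction ranged from 599 to 1803 (1392 with all libraries), 347 to 422 (676), 312 to 1002 (797) and 712 to 1920 (1633). With only the compared groups in the fit, 8 of the 49 were lower with FOSL1sh10, 1 was lower between the hairpins, and 1124 of all genes were called with FOSL1sh10. Without a count filter, 8 were lower with FOSL1sh10. With library totals as the only scaling, 7 were lower and 0 higher between the hairpins, and the median of all genes moved to -0.06 with FOSL1sh3, 0.11 with FOSL1sh10 and -0.17 between the hairpins. DESeq2 called 2 higher between the hairpins. With the replicate block, 13, 5 and 10 genes were lower with FOSL1sh3, FOSL1sh10 and in the mean, and between the hairpins 1 was lower and 3 were higher: MIS12 no longer passed (0.0544), and CENPE (0.57, adjusted p = 0.0491) and CDC27 (0.78, adjusted p = 0.0338) did. Same-numbered libraries correlated from -0.116 to 0.183 in their deviations from the group means, and others from -0.165 to 0.156. For GFPsh with FOSL1sh3 the same-numbered values were 0.183, 0.029 and 0.129, and for GFPsh with FOSL1sh10 -0.116, -0.095 and 0.038. These ranges overlap and do not decide whether the numbers pair libraries. The cause of these shifts was not tested. The median log2 difference of the 49 genes between the hairpins changed sign, to 0.0013 with only those groups, and ranged from -0.12 to 0.017 when 1 library was left out (highest without FOSL1sh3 replicate 3). Against GFPsh the median ranged from -0.41 to -0.32 with FOSL1sh3 and from -0.33 to -0.17 with FOSL1sh10. TTK, BUB1B, CENPC and CENPI, at few CPM, are limited by depth.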
